A study of Mus musculus with 40 samples.

Results

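The genes described here are the Wnt ligands, their Frizzled receptors and the secreted proteins that keep ligand and receptor apart, in MEFs, the fibroblasts that grow out when mouse embryos are put into culture. They were chosen by symbol alone: every row of the count table named Wnt, Fzd, Sfrp1 to Sfrp5, Dkk1 to Dkk4, Frzb or Wif1 was taken, which gave 39 of the 24062 genes. They are 19 ligands, 10 receptors, 6 antagonists that bind Wnt proteins (Sfrp1, Sfrp2, Sfrp4, Sfrp5, Frzb and Wif1) and 4 proteins of the Dickkopf family (Dkk1 to Dkk4), the founding members of which bind the co-receptors Lrp5 and Lrp6. Wnt proteins are lipid-modified signals that act on nearby cells through Frizzled receptors. With Lrp5 or Lrp6 as co-receptor they stabilize beta-catenin, which acts with Tcf/Lef factors on target genes, whereas ligands such as Wnt5a act mostly through Ror and Ryk receptors. In embryonic mesenchyme these genes are known for patterning limb, skeleton and skin.

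RNA-Seq was performed on primary MEFs of 13.5 days post coitum at passage 3, from a Mixed C57BL/6J-129P2OlaHsd strain. Their genotypes at Sall2, which encodes a zinc finger transcription factor, were WT, heterozygous (Het) and KO, the allele having been targeted in embryonic stem cells of the second strain. MEFs were left untreated (control) or received 1 μM doxorubicin, a DNA intercalating drug, for 16 h. The control libraries come from 1 WT, 1 Het and 3 KO embryos, and the doxorubicin libraries used here from 1 WT, 1 Het and 2 KO embryos, because the table gives the same count for 24062 of 24062 genes to the KO doxorubicin libraries 2 and 3, which were counted as 1. For WT and for Het, embryo and genotype cannot be told apart, and KO cells also carry a segment of the stem cell genome around Sall2. Levels are CPM, the counts of a gene relative to the TMM-scaled total of its library. Values are given in the order WT, Het and KO embryos 1, 2 and 3 for control, and WT, Het and KO embryos 1 and 2 for doxorubicin.

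The 9 libraries held between 15560728 and 24122414 counts, at which 3 counts correspond to 0.123 to 0.167 CPM. Sall2 itself (chromosome 14, 52311172 to 52328762, GRCm38) had 37.4, 24.0, 19.8, 24.1 and 18.9 CPM in control and 9.37, 8.13, 4.24 and 3.72 CPM with doxorubicin, so KO libraries were lower than WT within each treatment but not at 0. Which part of the gene the KO lacks is not given in the sources used here. The Het control, KO embryo 3 control and Het doxorubicin libraries stood apart from the rest. The summed level of 8 interferon-induced genes was 1624, 1828 and 1216 CPM in these libraries, 17.4 to 30.7 CPM in the other control libraries and 168 to 202 CPM in the other doxorubicin libraries. In the same 3 libraries 6 macrophage markers summed to 562, 413 and 645 CPM, against 64.1 to 147 CPM elsewhere, and 10 fibroblast markers to 20294, 16415 and 22907 CPM, against 47637 to 95327 CPM elsewhere. None of these markers was at 0 in every library. Not every marker followed its sum. In control the macrophage marker Csf1r had 28.4, 36.8, 25.9, 18.4 and 22.5 CPM. The fibroblast marker Dcn had 66.0, 41.8, 143, 39.8 and 67.6 CPM there. For both genes KO embryo 3 lay within the range of the WT and other KO control libraries. In bulk RNA, fewer cells of a type and less RNA per cell cannot be told apart.

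MEFs treated with doxorubicin had higher levels of many Wnt ligands that were low in control MEFs, among them Wnt7b, Wnt4, Wnt3, Wnt1, Wnt6, Wnt3a and Wnt9b. The receptors Fzd4, Fzd9 and Fzd10 and the antagonists Sfrp2, Frzb and Sfrp4 rose as well. Wnt16 fell, as did Wnt5a and Fzd7 with DESeq2, and with embryo as a replicate block these 3 and Dkk2, Fzd1 and Fzd2. Doxorubicin was compared with control in a single fit over the 9 libraries with genotype as a covariate (edgeR quasi-likelihood test, two-sided, FDR under 0.01). Of the 39 members 35 passed the filter on low counts, and 16 were higher and 1 lower with doxorubicin, where of all 15857 genes tested 21.7% were higher and 19.1% lower. Some members passed that filter through the doxorubicin libraries alone, so the same fit was also made on every gene with at least 1 count. There all 39 members were tested, 18 were higher and 1 lower, with a background of 17.6% higher and 15.2% lower among 20958 genes. The median log2 fold change was 1.43 for the 39 members and 0.23 for all genes in that fit.

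By role, 10 of 18 ligands tested were higher and 1 lower, and 3 of 5 Wnt-binding antagonists tested were higher, beside 21.7% of genes higher and 19.1% lower. Of the 10 receptors 3 were higher, a share near that of all genes in this fit, and none of the 4 Dickkopf genes, of which 2 were tested, passed with edgeR or DESeq2 or had an unadjusted p under 0.05 with edgeR. On every gene with at least 1 count, 10 of 19 ligands, 4 of 10 receptors and 4 of 6 Wnt-binding antagonists were higher, beside 17.6% of genes. With DESeq2 4 receptors were higher and 1 lower, beside 27.1% and 23.3% of genes. Over all roles DESeq2 called 19 members higher and 3 lower, against 27.1% and 23.3% of genes. Every doxorubicin library lay above every control library for 19 members, where 22.4% of all genes with a count had this order, and below them for 1, where 16.8% did. Within the 4 embryos with both treatments, 26 members were higher with doxorubicin in 4 of 4 and 6 lower in 4 of 4, with 35.1% and 27.4% of genes having these patterns. With embryo as a replicate block 22 members were higher and 6 lower, against 30.0% and 26.9% of genes. Without both Het libraries and the KO embryo 3 control library, an alternative chosen after seeing the data, the counts were 22 and 6, against 35.3% and 32.0% of genes, and without the KO embryo 3 control library alone 22 and 6, against 31.1% and 28.3%.

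**Figure D1:**
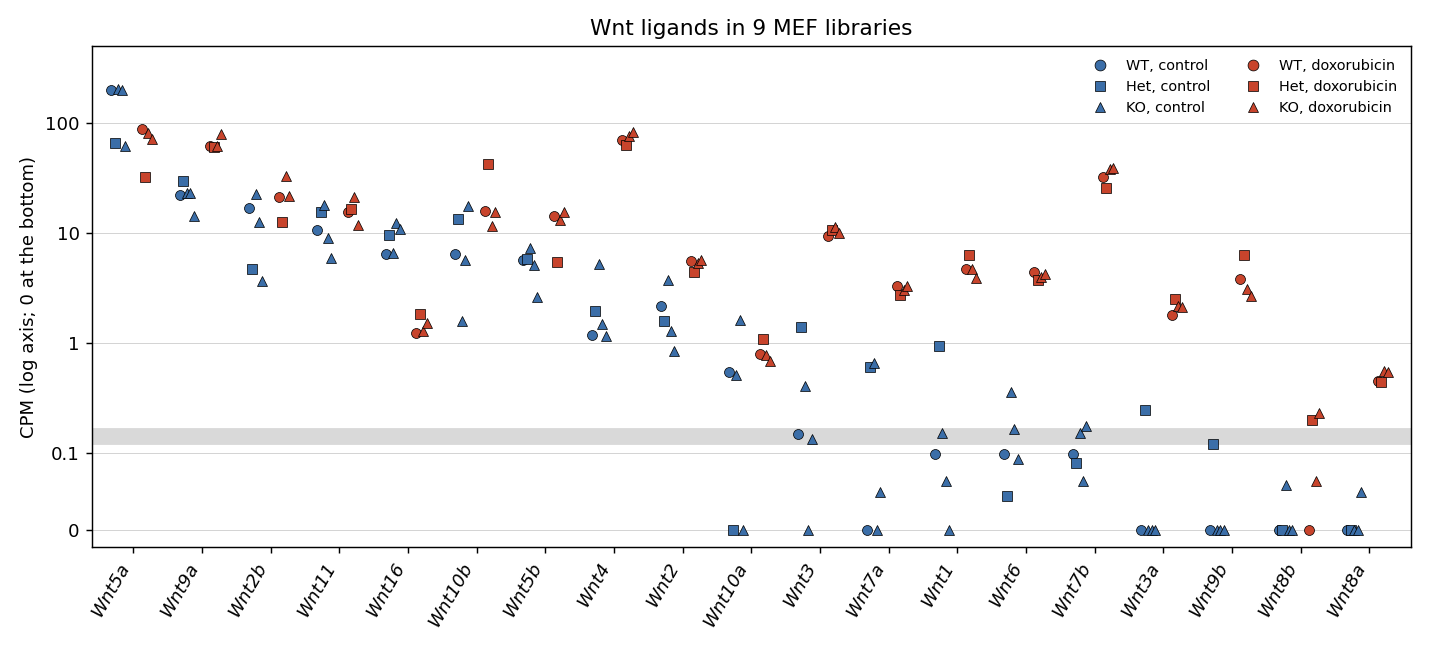
Levels of the 19 Wnt ligands in CPM on a log axis, with libraries at 0 drawn at the bottom, control in blue and doxorubicin in red, and circles, squares and triangles for WT, Het and KO libraries. The grey band is the level of 3 counts (0.123 to 0.167 CPM), and all 4 doxorubicin points of Wnt7b lie at 25.9 CPM or above while its control points lie in or below the band or just above it.

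Promoter windows of 250 bases before the start were taken from RefSeq (GRCm38.p6) to show the sequence in front of members with large changes. They matched 27 of the 39 members with 30 windows. These windows held a median of 21.5 CpG dinucleotides (4 to 48), against 6 in the 32851 windows of all genes, and 21 of the 30 had at least 16 CpGs, which 25.4% of all windows did. On either strand, GGGCGG (the GC box) was found in 22 of the 30 windows and in 32.7% of all windows, CCAAT in 10 and 33.8%, CTTTGA (a Tcf/Lef core) in 5 and 13.8%, and TATAAA in 5 and 12.4%. The windows shown are those of the ligand and the antagonist with the largest rise and of the ligand that fell, among windows free of annotated exons and genes with an average of at least 1 CPM. Capitals mark CpG, of which Wnt9b has 22 (chr11:103749822-103750071, minus strand), Sfrp2 16 (chr3:83766071-83766320, plus strand) and Wnt16 9 (chr6:22287977-22288226, plus strand).
Wnt9b: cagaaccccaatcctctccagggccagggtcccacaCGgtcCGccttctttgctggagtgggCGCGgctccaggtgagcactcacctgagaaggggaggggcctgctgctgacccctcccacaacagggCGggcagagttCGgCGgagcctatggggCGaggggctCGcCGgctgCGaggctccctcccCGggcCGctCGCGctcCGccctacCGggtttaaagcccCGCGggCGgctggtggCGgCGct
Sfrp2: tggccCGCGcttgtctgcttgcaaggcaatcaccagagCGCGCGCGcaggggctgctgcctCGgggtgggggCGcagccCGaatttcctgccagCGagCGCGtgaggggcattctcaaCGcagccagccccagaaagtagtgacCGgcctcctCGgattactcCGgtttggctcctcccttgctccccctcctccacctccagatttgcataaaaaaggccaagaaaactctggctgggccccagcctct
Wnt16: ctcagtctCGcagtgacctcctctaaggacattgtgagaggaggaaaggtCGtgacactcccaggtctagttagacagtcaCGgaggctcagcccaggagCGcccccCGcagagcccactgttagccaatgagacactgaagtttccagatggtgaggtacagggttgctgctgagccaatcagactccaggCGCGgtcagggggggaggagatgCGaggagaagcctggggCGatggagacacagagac
The Wnt9b window holds 3 GC boxes and 1 CCAAT, that of Wnt16 holds 2 CCAAT and no GC box, and that of Sfrp2 holds none of the 4 motifs.

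Among the ligands, Wnt7b, known for its part in lung and bone development (chromosome 15, 85535437 to 85582473), had the largest fitted rise over the 9 libraries. Without the Het and KO embryo 3 control libraries Wnt9b, then at 0 in control, had the larger fitted log2 fold change, 8.96 against 8.31, a value that depends on the prior count. Wnt7b had 0.0988, 0.0817, 0.153, 0.0557 and 0.178 CPM in control and 32.2, 25.9, 37.9 and 38.6 CPM with doxorubicin. All control libraries were at 4 counts or fewer and all doxorubicin libraries at 522 or more, so the groups lay far apart. The log2 fold change was 8.16 (SE, the standard error of the log2 fold change, 0.262, edgeR FDR 1.71e-06). AU022754, an antisense gene that overlaps Wnt7b exons, had 0, 0.0408, 0, 0, 0 CPM in control and 1.10, 4.31, 1.17 and 1.24 CPM with doxorubicin. The strand setting of the counting is not given in the sources used here. Without strand, union mode leaves out reads that fall on exons of both genes, so Wnt7b reads may be missing there.

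Wnt4, a ligand of kidney and gonad development (chromosome 4, 137277489 to 137299726), had 1.19, 1.96, 5.26, 1.5 and 1.16 CPM in control and 69.6, 62.5, 76.7 and 83.5 CPM with doxorubicin. The lowest doxorubicin library was above the highest control library, which was KO embryo 1, and the log2 fold change was 5.13 (SE 0.461, edgeR FDR 6.08e-05). Wnt9a, which takes part in joint formation, was already present in control, with 21.9, 29.6, 22.9, 23.0 and 14.1 CPM against 62.3, 60.5, 62.2 and 78.8 CPM with doxorubicin. The groups did not overlap, and its rise was smaller, a log2 fold change of 1.57 (SE 0.21, edgeR FDR 0.000368).

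Wnt3a, a classical activator of beta-catenin signalling, is the neighbour of Wnt9a on chromosome 11, where Wnt3a spans 59248033 to 59290752 on the minus strand and Wnt9a 59306928 to 59333552 on the plus strand. It had 0, 0.245, 0, 0 and 0 CPM in control and 1.79, 2.53, 2.17 and 2.11 CPM with doxorubicin. Its control reads, 6 in all, came from the Het library, and the log2 fold change was 5.59 (SE 0.817, edgeR FDR 0.000587).

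Wnt3 and Wnt9b form a second such pair on chromosome 11, with Wnt9b from 103727364 to 103749821 on the minus strand and Wnt3, which is needed for the primitive streak, from 103774150 to 103817957 on the plus strand. Wnt3 had 0.148, 1.39, 0.408, 0 and 0.134 CPM in control and 9.37, 10.8, 11.4 and 10.1 CPM with doxorubicin, a log2 fold change of 5.05 (SE 0.711, edgeR FDR 0.000484). Wnt9b, a ligand of kidney tubule and facial development, had 0, 0.122, 0, 0 and 0 CPM in control and 3.84, 6.30, 3.12 and 2.66 CPM with doxorubicin. In both genes the Het library was the highest of the control libraries and lay below every doxorubicin library. With 3 counts in the 5 control libraries together and 318 in the 4 doxorubicin libraries, the ratio of Wnt9b was 139 (95% exact interval 47.1 to 676, counting error only), and its edgeR FDR was 6.37e-05.

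Wnt1, a ligand of midbrain and neural crest development, lies next to Wnt10b on chromosome 15, with Wnt10b from 98770712 to 98778150 on the minus strand and Wnt1 from 98789857 to 98793837 on the plus strand. Wnt1 had 0.0988, 0.940, 0.153, 0.0557 and 0 CPM in control and 4.68, 6.25, 4.68 and 3.91 CPM with doxorubicin, without overlap and with the Het library again the highest in control (log2 fold change 4.78, SE 0.685, edgeR FDR 0.000531). Wnt10b, known for its part in bone and in restraining fat cell formation, had 6.47, 13.5, 1.58, 5.74 and 17.6 CPM in control and 15.8, 42.5, 11.5 and 15.7 CPM with doxorubicin. Its groups overlapped, and in control its 2 highest libraries were KO embryo 3 and Het, those with high macrophage and interferon sums. The log2 fold change of Wnt10b was 1.06 (SE 0.572, edgeR FDR 0.148), and with embryo as block it was 1.73 with an edgeR FDR of 0.000349, higher in 4 of 4 embryos.

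Wnt6 and Wnt10a are neighbours on chromosome 1, both on the plus strand, at 74771892 to 74785322 and 74791516 to 74804179. Wnt6, a ligand of ectoderm, had 0.0988, 0.0408, 0.357, 0.167 and 0.0893 CPM in control and 4.38, 3.77, 3.96 and 4.23 CPM with doxorubicin (log2 fold change 4.85, SE 0.491, edgeR FDR 9.6e-05). Its doxorubicin values lay close together and above every control value. Wnt10a, a ligand of tooth and skin appendages, had 0.544, 0, 0.510, 1.62 and 0 CPM in control and 0.797, 1.09, 0.781 and 0.689 CPM with doxorubicin. The groups of Wnt10a overlapped, and its log2 fold change of 0.95 did not pass (SE 1.13, edgeR FDR 0.503). Of the 4 pairs of neighbours, both genes were thus higher in 2 pairs and 1 gene in the other 2, and with embryo as block Wnt10b passed as well, which made both genes higher in 3 pairs.

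Wnt7a, a ligand of dorsal limb and nervous system, had 0, 0.613, 0.664, 0 and 0.0446 CPM in control and 3.29, 2.73, 3.07 and 3.31 CPM with doxorubicin. The groups did not overlap, but the control libraries were spread between 0 and 15 counts, and the log2 fold change of 3.72 (SE 0.94) had an edgeR FDR of 0.0093, just under the threshold. Leaving out the WT, Het or KO embryo 2 control library or any single doxorubicin library, 7 in all, raised this FDR to between 0.0125 and 0.034. Wnt8a had 1 count in the 5 control libraries together and 40 in the 4 doxorubicin libraries, a ratio of 52.4 (95% exact interval 8.88 to 2120).

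Wnt16, a ligand known for its part in bone mass and joints (chromosome 6, 22288227 to 22298522), fell. It had 6.47, 9.52, 6.64, 12.3 and 10.8 CPM in control and 1.25, 1.83, 1.28 and 1.52 CPM with doxorubicin. Every doxorubicin library lay below every control library, and the log2 fold change was -2.61 (SE 0.276, edgeR FDR 0.000118). Within the WT, Het and both KO embryos its log2 ratio of doxorubicin to control was -2.29, -2.31, -2.29 and -2.94.

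Wnt5a, the main beta-catenin-independent ligand of embryonic mesenchyme (chromosome 14, 28504750 to 28527448), was the ligand with the highest level per kb of exon in 4 of 5 control libraries. It had 201, 65.3, 202, 199.1 and 61.9 CPM in control and 87.6, 32.2, 80.2 and 72.1 CPM with doxorubicin. The Het and KO embryo 3 control libraries, which have low fibroblast sums, lay within the range of the doxorubicin libraries, so the groups overlapped, while in each of the 4 embryos the doxorubicin library was the lower. The log2 fold change of -1.06 did not pass (SE 0.327, edgeR FDR 0.023). With embryo as block it was -1.27 with an edgeR FDR of 2.26e-05, and without both Het libraries and the KO embryo 3 control library -1.33 with an edgeR FDR of 9.94e-07.

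Of the remaining ligands none passed with edgeR over the 9 libraries, where Wnt8b was not tested, and Wnt2 and Wnt5b were higher with DESeq2. Wnt2, a ligand of lung and placenta, had 2.17, 1.59, 3.73, 1.28 and 0.848 CPM in control and 5.53, 4.46, 5.35 and 5.70 CPM with doxorubicin, without overlap (log2 fold change 1.46, edgeR FDR 0.0162, and 0.00336 with embryo as block). Wnt2b, its paralogue, had control levels from 3.70 to 22.8 CPM and doxorubicin levels from 12.5 to 33.0 CPM, with an edgeR FDR of 0.0968 and of 0.00722 with the block. Wnt5b lay between 2.63 and 7.25 CPM in control and had 14.3, 5.46, 13 and 15.6 CPM with doxorubicin, so that the Het library stayed within the control range (edgeR FDR 0.0271). Wnt11 ranged from 5.98 to 18.0 CPM in control and from 11.9 to 21.2 CPM with doxorubicin (edgeR FDR 0.266), and Wnt8b had at most 5 counts in any library.

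Levels of different ligands were compared as CPM per kb of exon. Summed over the 19 ligands this level was 46.0, 32.8, 50.9, 45.7 and 23.9 in control and 84.8, 78.2, 89.5 and 92.0 with doxorubicin, so all doxorubicin libraries were above all control libraries. Wnt5a took 55.8%, 25.4%, 50.7%, 55.7% and 33.0% of this sum in control and 13.2%, 5.27%, 11.5% and 10.0% with doxorubicin. The share of Wnt4 was 0.615%, 1.42%, 2.46%, 0.785% and 1.16% in control and 19.6%, 19.1%, 20.4% and 21.6% with doxorubicin. By median CPM per kb the order in control was Wnt5a (25.5), Wnt9a (6.87), Wnt2b (3.01), Wnt11 (2.59) and Wnt16 (2.18), where the ranges of all neighbours overlapped, Wnt5a and Wnt9a through the Het library. With doxorubicin it was Wnt9a (18.7), Wnt4 (17.4), Wnt5a (9.73) and Wnt7b (7.15), and the ranges of Wnt9a and Wnt4 overlapped, as did those of Wnt5a and Wnt7b.

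**Figure D2:**
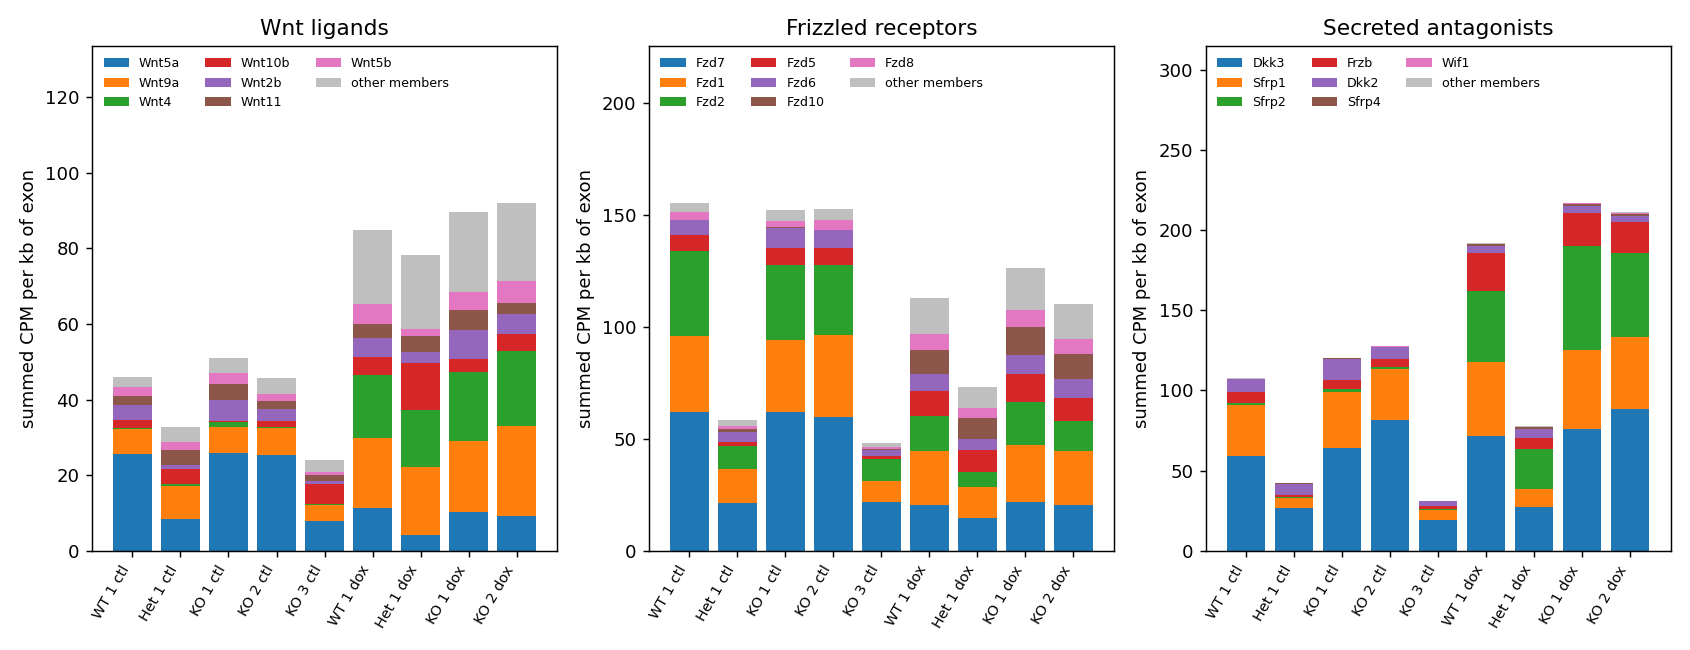
Summed level in CPM per kb of exon of the ligands, receptors and secreted antagonists in each library (ctl, control; dox, doxorubicin), stacked by gene with the 7 genes of the highest mean in colour and the rest in grey. Wnt5a forms the largest block of the ligand bar in WT and in KO embryo 1, 2 and 3 control, and Wnt9a and Wnt4 the largest with doxorubicin.

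Among the receptors, Fzd10 (chromosome 5, 128600844 to 128604093) and Fzd9, close relatives among the Frizzled receptors, rose from low levels. Fzd10 had 0.494, 4.21, 1.07, 0.557 and 0.714 CPM in control and 33.8, 31.5, 40.0 and 37.3 CPM with doxorubicin. Het control was the highest control library, at 103 counts, yet far below every doxorubicin library (log2 fold change 5.07, SE 0.512, edgeR FDR 9.51e-05). Fzd9 had 0.791, 0.735, 0.715, 0.669 and 0.178 CPM in control and 15.8, 7.29, 21 and 16.3 CPM with doxorubicin, without overlap and with Het the lowest of the doxorubicin libraries (log2 fold change 4.55, SE 0.454, edgeR FDR 9.04e-05).

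Fzd4, the receptor of norrin and of retinal vessel growth, had 16.7, 4.90, 18.0, 21.6 and 4.33 CPM in control and 50.3, 31.7, 53.1 and 46.8 CPM with doxorubicin. The groups did not overlap, and Het and KO embryo 3 were the lowest control libraries (log2 fold change 1.93, SE 0.424, edgeR FDR 0.00465). Without the WT or Het control library or any single doxorubicin library its FDR was 0.0135 to 0.0248. Fzd8 had a like pattern, with 19.8, 7.23, 18.3, 26.2 and 6.07 CPM in control and 42.7, 26.7, 46.2 and 38.0 CPM with doxorubicin, but its edgeR FDR was 0.0117, and 0.000976 with embryo as block. Fzd5 had 49.2, 11.5, 52.6, 53.6 and 11.3 CPM in control and 79.8, 66.0, 86.6 and 71.3 CPM with doxorubicin (edgeR FDR 0.0473, and 0.0161 with the block). In all 3 genes every doxorubicin library was above every control library.

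Fzd7, Fzd1 and Fzd2, broadly expressed receptors, had the highest levels per kb in control, with medians of 59.9, 32.2 and 31.3 CPM per kb and overlapping ranges. Fzd7 had 282, 96.4, 282, 272 and 98.2 CPM in control and 93.7, 66.7, 98.9 and 92.7 CPM with doxorubicin. The Het and KO embryo 3 control libraries sat at the level of the doxorubicin libraries, the other 3 control libraries well above (log2 fold change -1.13, SE 0.327, edgeR FDR 0.0177). With embryo as block the FDR was 0.000262, and for Fzd2 it was 0.000353 in place of 0.0982 and for Fzd1 0.00775 in place of 0.686. All 3 were lower with doxorubicin in 4 of 4 embryos. Fzd2 ranged from 36.3 to 139.9 CPM in control and from 25.2 to 70.6 CPM with doxorubicin, and Fzd1 from 39.1 to 153 and from 58.0 to 107 CPM.

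Fzd3 and Fzd6, receptors of planar cell polarity, did not pass. Fzd3 lay between 12.5 and 22.4 CPM in control and between 16.9 and 21.9 CPM with doxorubicin, and Fzd6 between 13.2 and 41.9 and between 23.2 and 41.0 CPM (edgeR FDR 0.716 and 0.484). Per kb, the summed receptor level was 156, 58.3, 152, 153 and 48.2 in control and 113, 73.2, 126 and 110.1 with doxorubicin, and the share of Fzd7 was 36.5% to 44.9% in control and 17.3% to 20.1% with doxorubicin. Fzd10 took 0.0978% to 2.22% of it in control and 9.23% to 13.3% with doxorubicin.

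**Figure D3:**
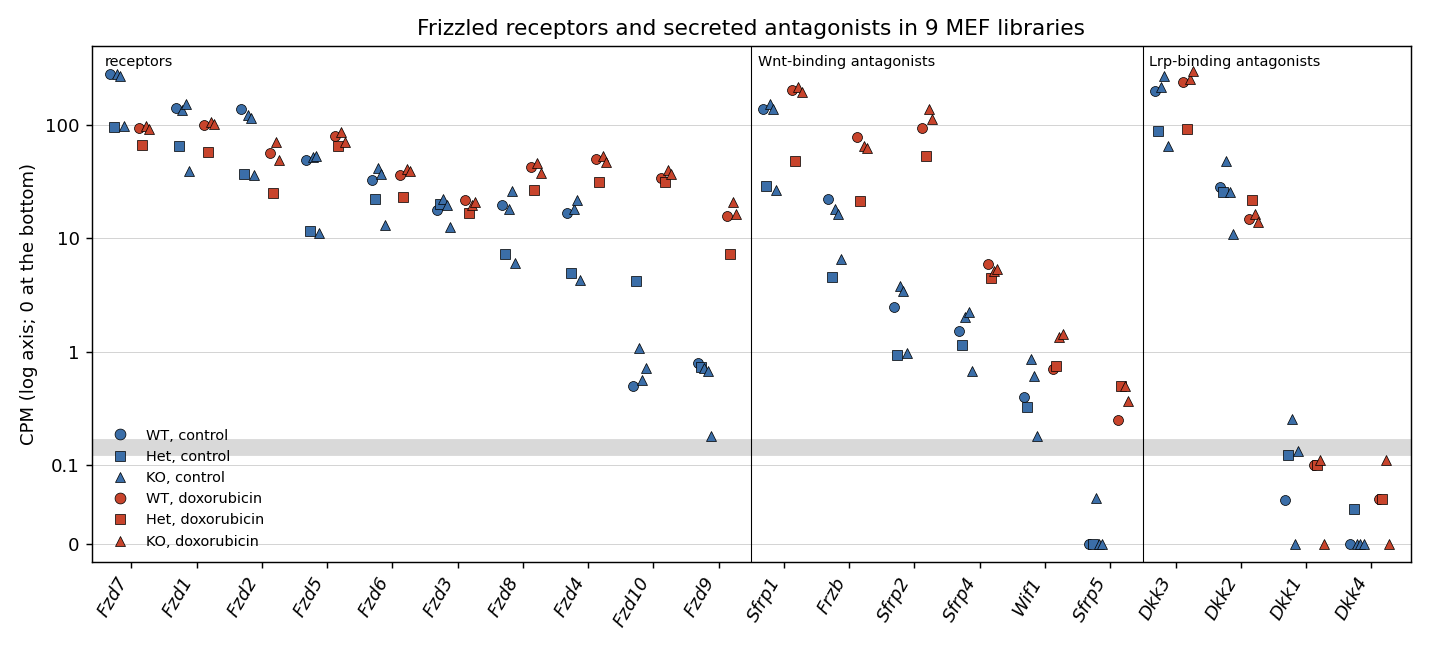
Levels of the 10 Frizzled receptors, 6 Wnt-binding antagonists and 4 Dickkopf genes in CPM on a log axis, drawn as for the ligands (blue control, red doxorubicin, circles WT, squares Het, triangles KO, grey band 3 counts). For many genes, Sfrp1 and Fzd7 among them, the Het square and 1 control triangle, KO embryo 3, lie below the other control points.

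Of the antagonists that bind Wnt proteins, Sfrp2, a Frizzled-related protein of mesenchyme (chromosome 3, 83766321 to 83774316), had the largest rise. It had 2.47, 0.940, 3.78, 3.46 and 0.982 CPM in control and 94.3, 53.6, 139.7 and 113 CPM with doxorubicin. The 2 lowest control libraries were again Het and KO embryo 3 and the lowest doxorubicin library was Het, but the groups lay far apart (log2 fold change 5.53, SE 0.375, edgeR FDR 1.89e-05). Its log2 ratios within the WT, Het and both KO embryos were 5.20, 5.69, 5.17 and 5.0.

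Frzb, a Frizzled-related protein of cartilage, had 22.4, 4.58, 18.1, 16.4 and 6.56 CPM in control and 77.9, 21.5, 65.9 and 62.4 CPM with doxorubicin. The Het doxorubicin library lay just below the WT control library, the only overlap, and the rise within embryos was close, with log2 ratios of 1.79, 2.21, 1.86 and 1.92 (log2 fold change over all libraries 2.13, SE 0.283, edgeR FDR 0.000362). Sfrp4, another Frizzled-related protein, known for its part in bone, had 1.53, 1.14, 2.04, 2.23 and 0.669 CPM in control and 5.88, 4.46, 5.19 and 5.38 CPM with doxorubicin, without overlap (log2 fold change 1.80, SE 0.36, edgeR FDR 0.0029). Without any single doxorubicin library or without the WT or Het control library, its FDR lay between 0.0121 and 0.0155.

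Sfrp1, the Frizzled-related protein with the highest median level per kb in control, had 139, 29.3, 152, 138 and 26.6 CPM in control and 203, 48.0, 216 and 196 CPM with doxorubicin. The 3 libraries with low fibroblast sums were the 3 lowest, whichever the treatment, and within each embryo doxorubicin was the higher. The log2 fold change of 0.81 did not pass (SE 0.427, edgeR FDR 0.139), and with embryo as block it was 0.55 with an edgeR FDR of 0.000962. Wif1 lay between 0.178 and 0.868 CPM in control and between 0.698 and 1.42 CPM with doxorubicin (edgeR FDR 0.0553). Sfrp5 had 1 count in the control libraries together and 32 in the doxorubicin libraries, a ratio of 41.9 (95% exact interval 7.0 to 1706).

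The Dickkopf genes did not pass. Dkk3, a divergent member of the family, had the highest level per kb of the antagonists in every library, and its CPM were 199.3, 89.1, 216, 274 and 65.3 in control and 241, 92.6, 255 and 297 with doxorubicin (log2 fold change 0.39, SE 0.364, edgeR FDR 0.389). Het and KO embryo 3 were again the low libraries, and the groups overlapped. Dkk2 had 28.6, 25.6, 48.2, 25.9 and 11 CPM in control and 14.9, 21.8, 16.6 and 13.8 CPM with doxorubicin, lower in 4 of 4 embryos (edgeR FDR 0.128, and 0.00343 with embryo as block). Dkk1 and Dkk4, the classical inhibitors of Lrp6, had at most 5 and 2 counts in any library. Summed per kb, the antagonists stood at 107, 42.5, 121, 128 and 31.3 in control and 192, 77.7, 217 and 211 with doxorubicin, and Sfrp2 took 1.03% to 1.46% of that level in control and 22.8% to 32.0% with doxorubicin.

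**Figure D4:**
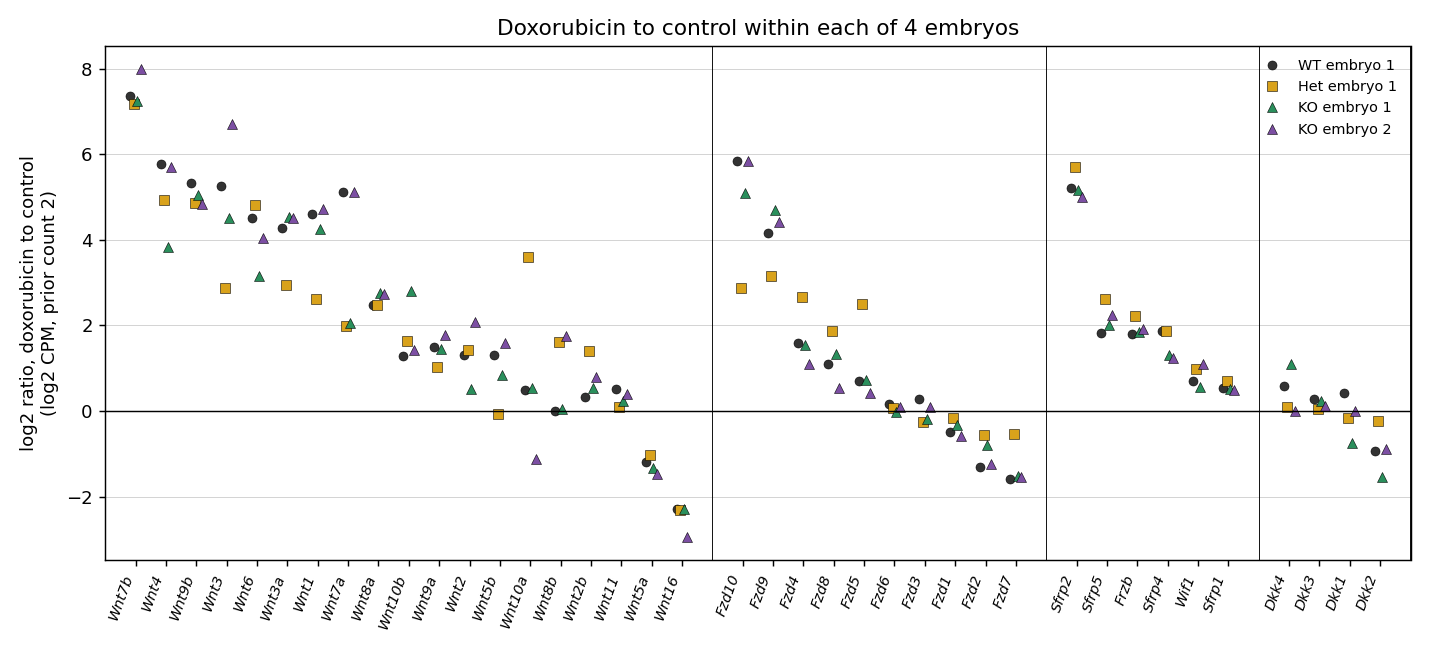
Log2 ratio of doxorubicin to control (log2 CPM with a prior count of 2) within WT, Het, KO embryo 1 and KO embryo 2 for all 39 members, ordered by mean within ligands, receptors, Wnt-binding antagonists and Dickkopf genes from left to right. The ratios of Wnt7b lie between 7.18 and 7.98 and those of Wnt16 between -2.94 and -2.29.

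Other genes of the pathway were followed through lists. Their counts are to be read against 21.7% of genes higher and 19.1% lower. Of 8 co-receptors and related receptors 1 was higher and 2 lower. Kremen2, a partner of Dickkopf proteins, rose by a log2 fold change of 5.57 (edgeR FDR 0.000312), and Lrp6 and the Wnt5a receptor Ror2 fell by 1.57 and 1.70 on the log2 scale (edgeR FDR 0.00582 and 0.00508). Lrp6 had 178, 61.2, 181, 184 and 59.5 CPM in control and 45.2, 35.1, 46.1 and 40.4 CPM with doxorubicin. Of 9 genes of the R-spondin axis, whose ligands enhance Wnt signalling by clearing the ubiquitin ligases Znrf3 and Rnf43, 3 were higher (Rspo1, Rspo4 and Znrf3) and 2 lower (Rspo2 and Rspo3). Rspo3 had 42.5, 21.2, 33.2, 54.9 and 39.4 CPM in control and 17.7, 6.55, 19.9 and 22.2 CPM with doxorubicin, a log2 fold change of -1.22 (edgeR FDR 0.00114). Of 5 genes of ligand secretion and release 1 was higher, Notum, which inactivates Wnt proteins by removing their lipid (log2 fold change 5.09, edgeR FDR 9.3e-05), while Wls, the carrier that Wnt proteins need to leave the cell, had 604 to 1037 CPM in control and 510 to 1075 CPM with doxorubicin (edgeR FDR 0.709). Of 5 further extracellular inhibitors 2 were tested and 0 passed with edgeR, while 1 was higher with DESeq2. An unadjusted p under 0.05 with edgeR was found for 1 of them, beside 9606 of all 15857 genes. With embryo as block 1 of these inhibitors was higher, 2 co-receptors were higher and 4 lower, and 4 genes of the R-spondin axis were lower. Of all genes 30.0% were higher and 26.9% lower with the block.

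Inside the cell, 1 of 12 core components of the beta-catenin pathway was higher (Pygo2) and 4 were lower (Csnk1a1, Ctnnb1, Dvl2 and Dvl3). Dvl2 had the largest decrease of these, with a log2 fold change of -1.75 (edgeR FDR 0.000239). Of 12 genes known as beta-catenin targets 6 were higher (Axin2, Dact1, Lef1, Nkd1, Sp5 and Tcf7) and 3 lower (Myc, Wisp1 and Wisp2). Axin2, the feedback inhibitor most used as a readout of the pathway, had 1.09, 12.3, 4.39, 1.62 and 1.16 CPM in control and 14.1, 21.4, 20.0 and 14.0 CPM with doxorubicin, a log2 fold change of 2.56 (edgeR FDR 0.00355). The groups of Axin2 did not overlap, and its Het control library was the highest in control, as for Wnt1, Wnt3, Wnt3a, Wnt9b and Fzd10. Tcf7 rose by 2.47 on the log2 scale (edgeR FDR 7.25e-05), and Sp5 was at 0 to 0.0408 CPM in control and at 2.88 to 4.27 CPM with doxorubicin. Wisp1 fell by 2.31 and Wisp2 by 3.41 on the log2 scale (edgeR FDR 0.000122 and 7.29e-05). The medians of the lists were -0.25 (co-receptors), -0.45 (R-spondin axis), 0.12 (secretion), -0.37 (core) and 1.48 (targets) on the log2 scale, beside -0.01 over the 15857 genes tested.

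Markers of other cells and states were tested in the same fit. Here too the counts are to be read against 21.7% of genes higher and 19.1% lower. These shares were 27.1% and 23.3% with DESeq2 and 30.0% and 26.9% with embryo as block. Of 10 fibroblast markers 1 was lower (Pdgfrb), and their summed level was 16415 to 95327 CPM in control and 22907 to 59808 CPM with doxorubicin. Of 6 macrophage markers 1 was higher (Cd68) and 1 lower (Csf1r), and of 5 endothelial markers 1 was higher (Emcn), or 4 with DESeq2. Of 5 epithelial markers 4 were tested, 2 were higher (Epcam and Krt5) and 1 lower (Krt18). Epcam was at 0 to 0.357 CPM in control and at 2.98 to 3.64 CPM with doxorubicin, while the summed level of the 5 markers was 6.94 to 18.7 CPM in control and 7.14 to 12.8 CPM with doxorubicin. Of 5 Schwann cell and neural crest markers 4 were tested, with Foxd3 higher and Sox10 lower. Their summed level was 194 CPM in Het control and 93.1 CPM in Het doxorubicin, against 6.67 to 29.5 CPM in the other libraries. Of these sums Fabp7 had 160 CPM in Het control and 64.8 CPM in Het doxorubicin. Of 5 skeletal muscle markers 0 passed with edgeR or DESeq2. An unadjusted p under 0.05 with edgeR was found for 2 of them, beside 9606 of all 15857 genes. With embryo as block 1 muscle marker was lower (Acta1), 2 macrophage, 3 endothelial and 3 epithelial markers were higher, and 1 fibroblast marker was higher and 2 lower. Among 8 interferon-induced genes 0 passed with either tool and 0 had an unadjusted p under 0.05 with edgeR, while with embryo as block 2 were higher. Among 8 targets of p53 0 were higher and 1 was lower (Phlda3), or 3 lower with DESeq2 and with embryo as block. The part of other cells in the rise of the ligands was not tested.

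The genotypes were compared to ask whether the members depend on Sall2. Over both treatments 0 of 35 members tested passed between KO and WT, with edgeR and with DESeq2, and 0 had an unadjusted p under 0.05 in either, beside 0.0% of all 15857 genes in each direction with edgeR. Sall2, lower in KO by its levels, thus did not pass with edgeR either. This fit therefore cannot tell whether the members depend on Sall2. Log2 fold changes lay between -0.51 and 0.72. Without the KO embryo 3 control library 0 passed and 3 had an unadjusted p under 0.05 with edgeR (Frzb, Sfrp2 and Wif1), beside 340 of 15694 genes. With 1 WT library in each treatment, only effect sizes are given for the treatments alone. The log2 fold changes lay between -0.69 and 1.17 in control for the 27 members tested, and between -0.42 and 0.98 with doxorubicin for 35. With 1 factor of unwanted variation as a covariate (RUVg), 4 members had an unadjusted p under 0.05 in control (Frzb, Fzd2, Sfrp1 and Wnt5a) and 0 passed. Of all genes 0.118% were higher and 0.0787% lower in KO with doxorubicin. Wnt5a and Fzd3 lie on chromosome 14 like Sall2, 23.8 and 12.9 Mb from it. In KO against WT over both treatments Wnt5a had a log2 fold change of -0.30 (SE 0.392) and Fzd3 of -0.05 (SE 0.252).

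The response to doxorubicin was also compared between KO and WT. For this interaction 0 of 36 members passed with edgeR or DESeq2, beside 0 of all 16656 genes in each direction with either tool. An unadjusted p under 0.05 was found for 0 members, beside 58 of these genes with edgeR and 29 with DESeq2. These fits therefore cannot tell whether the response of the members differs between KO and WT. With embryo as block 0 members passed too, beside 0.012% of genes higher and 0.036% lower. Beside 521 of 16656 genes, 3 members there had an unadjusted p under 0.05. These were Wnt4, Wnt7a and Wnt10b, with blocked edgeR FDRs of 0.359, 0.968 and 1. Within the WT, Het and both KO embryos the log2 ratio of Wnt4 was 5.76, 4.93, 3.84 and 5.71, so the KO embryos lay on either side of Het. The single WT embryo limits the precision of this comparison.

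Between Het and WT over both treatments 0 of 35 members passed with edgeR, and 1 passed with DESeq2 (Frzb), which called 0.593% of genes lower. With edgeR 4 members had an unadjusted p under 0.05 (Frzb, Fzd2, Sfrp1 and Wnt5a, all lower in Het), beside 3679 of all 15857 genes in either direction. Without the KO embryo 3 control library 7 members were lower in Het (Dkk3, Frzb, Fzd1, Fzd2, Sfrp1, Sfrp2 and Wnt5a), beside 11.3% of genes. Het and WT are 1 embryo each, and this test counts the control and doxorubicin libraries of an embryo as separate, so its p-values are too small for a difference between genotypes. The log2 fold change of Sfrp1 was then -2.15 with an edgeR FDR of 7.35e-05, against -2.17 and 0.204 with that library. Without both the Het and the KO embryo 3 control libraries 9 members were lower, beside 9.89% of genes. The embryo 3 control library is KO, and its Sfrp1, Frzb, Wnt5a and Fzd2 levels of 26.6, 6.56, 61.9 and 36.3 CPM were close to those of the Het control library, 29.3, 4.58, 65.3 and 37.2 CPM. Both libraries had low fibroblast sums and high macrophage and interferon sums. The Schwann cell and neural crest sum was high in the Het libraries alone. In Het, genotype, embryo and these marker levels cannot be told apart.

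**Figure D5:**
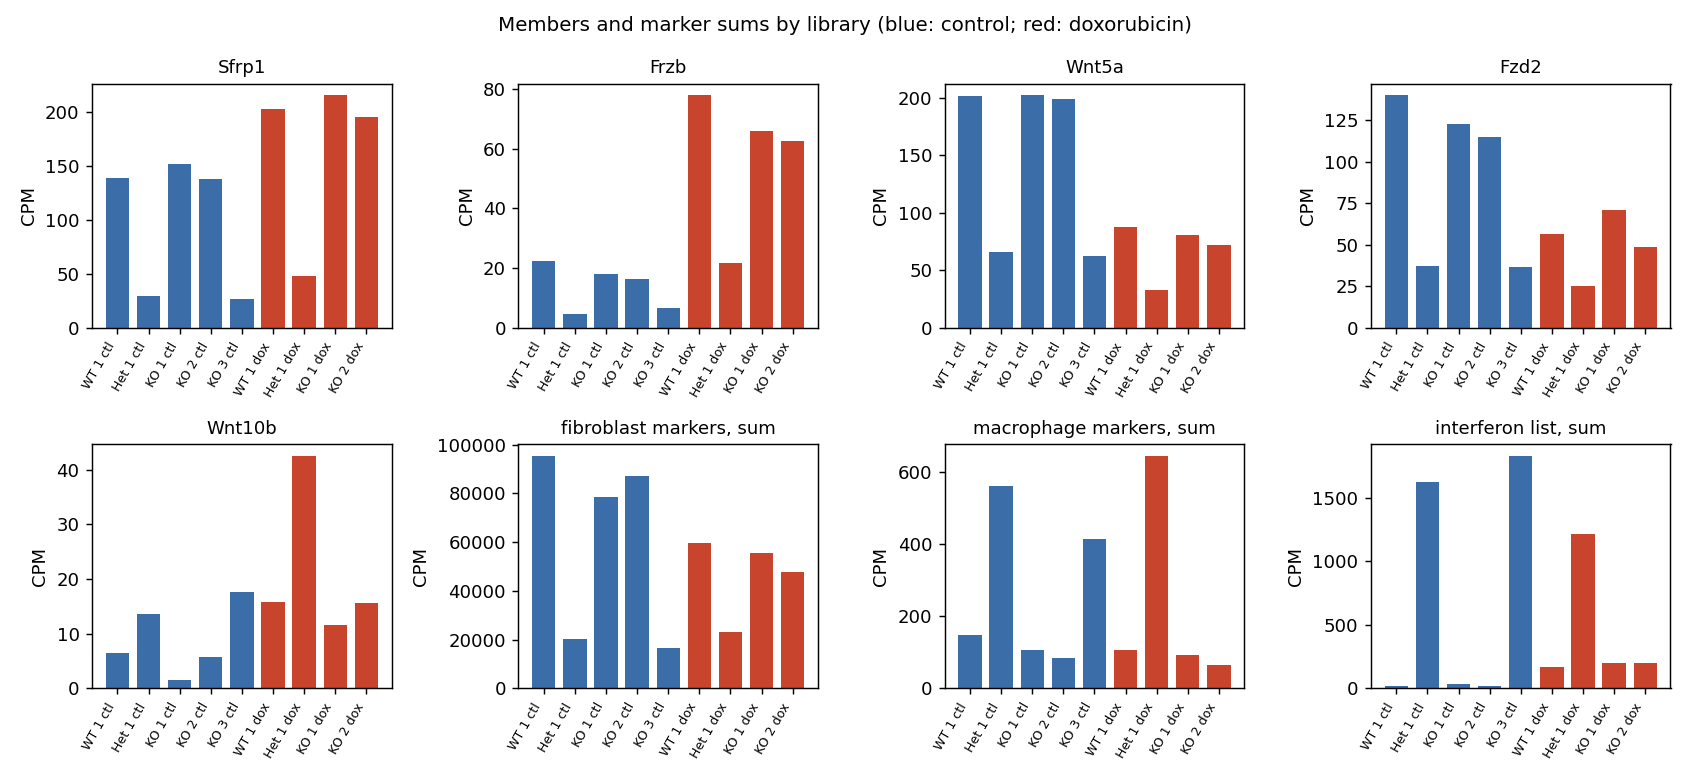
CPM of 5 members and summed CPM of the fibroblast, macrophage and interferon lists in each library, with control in blue and doxorubicin in red. Within each treatment, the Het control, KO embryo 3 control and Het doxorubicin bars are low for Sfrp1, Frzb, Wnt5a, Fzd2 and the fibroblast list and high for Wnt10b and the macrophage and interferon lists.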

How the data were processed

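RNA-Seq reads of MEFs were counted per gene. Each library has 4 FASTQ files, which the authors joined and aligned to mm10 with HISAT2 (2.1.0 in the submitters' processing notes). They deposited whole-number HTSeq counts (union mode, strand setting not given) for 24062 genes without normalization. Of the 10 columns of the table, 1 was not used because it is identical to another. A union-mode count leaves out reads over overlapping genes.

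These counts were fitted with edgeR 4.0.16 under R 4.3.3 (TMM, filterByExpr, glmQLFit and glmQLFTest, Benjamini-Hochberg over all genes tested, two-sided, FDR under 0.01), with DESeq2 1.42.0 as an alternative. The edgeR fit of doxorubicin against control with genotype as a covariate was also run on simulated counts, and the other fits were not. Log2 ratios of single libraries used a prior count of 2. Members called for doxorubicin at an average of at least 1 CPM, or called between genotypes, were to be given by library, and up to 3 called genes in each direction named per list. Further members by library, the other called genes of the lists, and Wls were added after their values were seen. Coordinates and exon lengths come from GENCODE (GRCm38), promoter windows from RefSeq. The members, the lists and the alternatives were chosen with earlier results of these data known. Alternatives were every gene with at least 1 count, library size without TMM, an FDR under 0.05, RUVg with 1 factor (all but 5000 genes taken as unchanged), embryo as a block, KO libraries only, and leaving out libraries.

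The labels number the embryos alike in both treatments. As a check of this pairing, KO embryo 1 minus KO embryo 2 in control was correlated with the same quantity under doxorubicin (Pearson r = 0.370 across 15857 genes, which are not independent), and Xist and 4 Y-linked genes matched between both treatments of each of the 4 embryos. These genes cannot tell WT from KO embryo 2, with 5913 and 5997 Xist counts in control. KO embryos 1 and 3 expressed the Y-linked genes, and WT, Het and KO embryo 2 expressed Xist, so sex is partly mixed with genotype. P-values measure the spread between these libraries, and intervals cover counting error only. GENCODE places exons of another gene on the opposite strand over Fzd5, Fzd6, Sfrp2, Wnt5a, Wnt7b and Wnt11, of which only the partner of Wnt7b is in the count table, so values of these 6 members are uncertain to that extent.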

Additional observations from a re-analysis of the deposited data

Results flagged for a closer look

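Wnt5b and Fzd3 were picked out because the direction of doxorubicin against control differed between genotypes. The log2 ratio of Wnt5b was 1.32 in the WT embryo and 0.83 and 1.59 in the KO embryos, and -0.077 in the Het embryo. That of Fzd3 was 0.28 in the WT embryo and -0.26 in the Het embryo, with -0.19 and 0.09 in the KO embryos. With 1 embryo each in WT and Het these differences were not tested. The Het libraries are among those with high macrophage and interferon sums.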

How the results depend on the processing

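With doxorubicin, 16 members were higher in the fit over the 9 libraries and 11 to 23 under the alternatives, with 13 to 22 when single libraries were left out. The number of all genes called moved as well. In KO libraries only, with 11 members higher, 1201 of 14904 genes were higher and 710 lower. Without the control libraries of Het and KO embryo 3, with 23 members higher, 5512 of 16337 genes were higher and 5006 lower. The count of members lower moved from 1 to 3 at an FDR under 0.05 and with DESeq2, to 2 with library size alone, and to 6 with embryo as a replicate block, without the control libraries of Het and KO embryo 3, and without these and the Het doxorubicin library, the last chosen after seeing the data. It was 1 to 6 when single libraries were left out, with 6 without the KO embryo 3 control library. Of all 15857 genes 3035 were lower in the fit over the 9 libraries and 4269 at an FDR under 0.05. With DESeq2 3689 of them were lower and with library size alone 2449. Between Het and WT the count of members called moved from 0 to 1 with DESeq2. It was 0 to 7 when single libraries were left out, with 7 without the KO embryo 3 control library. The causes of these changes were not tested. Between KO and WT, and for the interaction also with the block, 0 members passed under every alternative run. Leaving out a KO library with doxorubicin alone, or a WT library for the interaction, could not be fitted. For the 15 members called at an average of at least 1 CPM, 216 of 240 alternative values kept direction and threshold, 24 kept the direction but missed the threshold, 0 reversed, and 11 members passed in all. Depth limits Wnt8b, Dkk1 and Dkk4, which had at most 5 counts in any library.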
